A study of Triticum aestivum with 20 samples.

Results

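The 3 VRN1 homoeologues of bread wheat, VRN-A1, VRN-B1 and VRN-D1, were followed through chromatin state maps of leaf and vernalized leaf. They were chosen by their positions in the IWGSC RefSeq v1.0 assembly: VRN-A1 at chr5A:587411001-587424000, VRN-B1 at chr5B:573803001-573816000 and VRN-D1 at chr5D:467176001-467185000, each with 50 kb on either side. The loci measured 13, 13 and 9 kb and held 65, 65 and 45 bins of 200 bp, 175 bins in all out of 70331394 bins on the 21 chromosomes. The gene annotation of this assembly was not used here, so exons, introns and neighbouring genes are not placed, and the borders are those of the stated intervals.

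VRN1 encodes a MADS-box transcription factor of the class that in Arabidopsis includes APETALA1, and it promotes the passage from vegetative growth to flowering. In winter wheat it is silent or weakly expressed until prolonged cold induces it, and its long first intron is a known site of natural deletions that give spring growth habit. H3K27me3, the mark laid down by Polycomb complexes, is known to cover VRN1 before cold, while H3K4me3, H3K27ac and H3K36me3 are marks of active promoters and transcribed bodies. VRN2, a repressor of flowering, and VRN3, the wheat FT gene whose product moves from the leaf to the apex, act in the same pathway.

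The study mapped H3K27me3, H3K4me3, H3K36me3 and H3K27ac by ChIP-seq in leaf and in vernalized leaf of the winter cultivar AK58, with 2 replicates of each mark and of the input in each condition. Leaf came from seedlings grown in the greenhouse without cold, and vernalized leaf from plants that in addition spent a month in a cold chamber at long day and then a day back in the greenhouse. Cold, age and the return to warmth therefore changed together and cannot be told apart. From these marks and chromatin accessibility the authors made 1 map per condition that gives each bin of the genome a state, E1 to E9, so each value below comes from 1 leaf map and 1 vernalized leaf map, without replicate error, and no test between conditions could be made. The sequencing depth behind a state is unknown, because the maps hold no counts or signal.

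The states were read through 4 classes. E5, H3K27me3 alone, was the repressed class. E3, E4 and E8, in which H3K27me3 occurs together with active marks or accessibility, were the mixed class: E3 carries H3K4me3 and H3K27ac, E4 a weak H3K27ac signal, and E8 accessibility. In the leaf map E4 also shows a weak H3K4me3 signal. E1, E2, E6 and E7 were the activated class, of which E1 holds all active marks, E2 mainly H3K36me3, E6 accessibility with some H3K27ac and E7 accessibility alone. E9 was the unmodified class. The reference assembly is that of Chinese Spring, a spring wheat known to carry a deletion in the first intron of VRN-D1, so sequence that only AK58 has at a VRN1 copy has no bin in these maps.

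Distances below run from the high-coordinate edge of each locus into it. In the study's browser views this edge is the 5′ end of VRN-B1 and VRN-D1. The direction of VRN-A1 was not settled from the sources, and its high-coordinate end was set beside those of the other copies.

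As homoeologues the copies are closely similar in sequence. The paper states that alignments were filtered by mapping quality. How far reads that fit more than 1 copy were dropped by this filter, or remain in these values, was not tested. The primers that the study designed to measure each copy's transcript are printed because they show how few bases tell the copies apart there. They are given with the bases that differ between the copies in capitals, after alignment at their 3′ ends.
VRN1.A_F: cagcctcaaacCagctcttcA
VRN1.BD_F: cagcctcaaacAagctcttcT
VRN1.A_R: ctctgccctctcGcctgT
VRN1.B_R: ctctgccctctcTcctgA
VRN1.D_R: ctgccctctcGcctgC
The forward primers of 21 bases differ at 2 bases, and 1 of them serves VRN-B1 and VRN-D1 together. The reverse primers differ in each copy at the last base of the 3′ end, and that of VRN-B1 differs from the other two at 1 further base.

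The study further used 2 probes from the VRN1 promoter in its gel-shift assay of TaSPL7A, a transcription factor of the SPL family, whose members bind elements with a GTAC core. They are shown as the promoter sequences of VRN1 that the study itself examined. Capitals mark the 4 bases that were replaced in the mutated probes.
P1-1 probe: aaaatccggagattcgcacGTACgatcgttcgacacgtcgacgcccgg
P1-2 probe: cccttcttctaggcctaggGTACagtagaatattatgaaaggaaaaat
Each probe has 48 bases. Without the genome sequence the probes were not assigned to a copy or to a bin.

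In leaf, every bin of all 3 loci carried H3K27me3, alone or in a mixed state. VRN-A1 held 9 kb of repressed and 4 kb of mixed chromatin, VRN-B1 12 kb and 1 kb, and VRN-D1 6.4 kb and 2.6 kb. No bin of any locus was activated or unmodified. By comparison, repressed and mixed chromatin together covered 3.13% of chromosome 5A, 4.31% of 5B and 4.49% of 5D in leaf.

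In vernalized leaf the copies differed in what had become of this coverage. VRN-A1 kept H3K27me3 in 64 of 65 bins, but most of it was now mixed: repressed chromatin fell from 9 to 3.8 kb and mixed chromatin rose from 4 to 9 kb. VRN-B1 kept H3K27me3 in all 65 bins and was mostly still repressed, with 11 kb repressed and 2 kb mixed. VRN-D1 kept it in 31 of 45 bins, with 5.2 kb repressed and 1 kb mixed, and 2.8 kb of the locus had become unmodified. Activated chromatin was absent from all 3 loci in vernalized leaf as well, and no run of bins went from repressed to activated. These are class labels, and the level of a mark can change without a change of label. In its signal tracks the paper reports less H3K27me3 and more H3K27ac and H3K4me3 at every VRN1 copy after vernalization. It also reports more H3K36me3 on the A and B copies, a more accessible promoter and induced expression. Signal and expression were not measured here, so absent activated labels do not show that VRN1 failed to respond. A change common to the loci was a gain of E3, the mixed state with H3K4me3, near the high-coordinate edge, from 0.6 to 2.2 kb at VRN-A1, from 0 to 0.8 kb at VRN-B1 and from 0.2 to 0.8 kb at VRN-D1. Of the E3 in vernalized leaf, 1.4 kb at VRN-A1 and 0.8 kb each at VRN-B1 and VRN-D1 was E4 in leaf. Because E4 had a weak H3K4me3 signal in leaf, this gain of E3 need not be new H3K4me3. E3 also rose over the whole chromosomes, from 0.192 to 0.595 Mb on 5A, from 0.206 to 0.585 Mb on 5B and from 0.191 to 0.609 Mb on 5D, so a gain of E3 was not particular to VRN1.

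**Figure D1:**
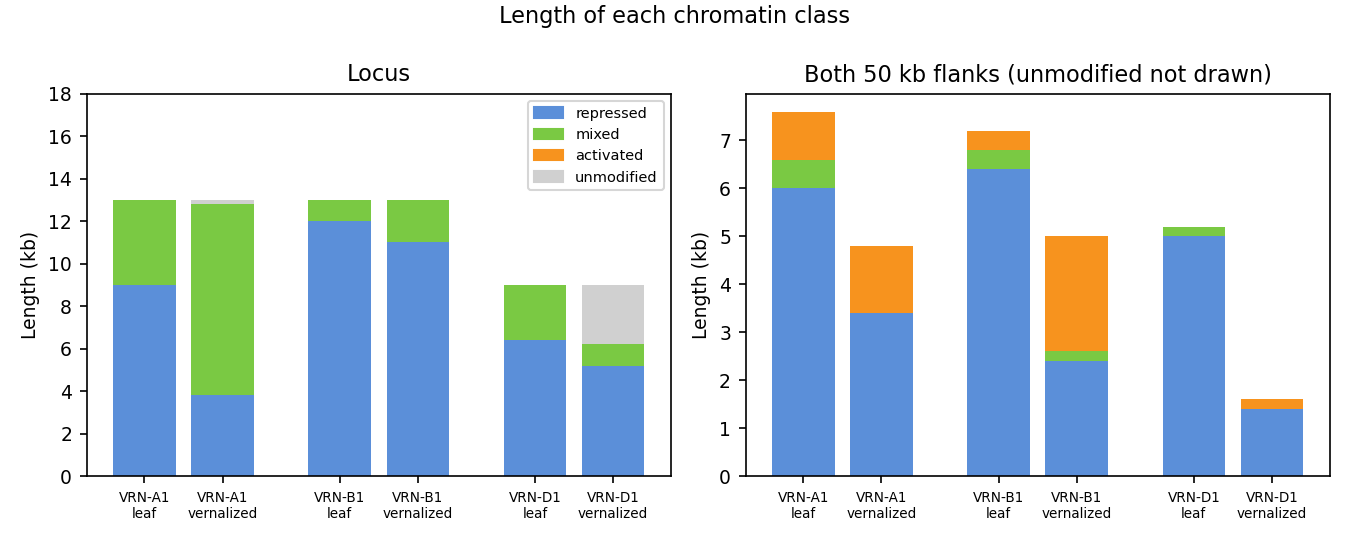
Length in kb of each chromatin class at the 3 VRN1 loci (left) and in both 50 kb flanks together (right), for leaf and vernalized leaf; each bar is 1 map, so there is no error bar. VRN-A1 went from 9 to 3.8 kb repressed with its coverage otherwise kept as mixed chromatin, VRN-B1 went from 12 to 11 kb repressed, and VRN-D1 gained 2.8 kb of unmodified chromatin.

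At VRN-A1 in leaf, the high-coordinate edge lay in a run of E8 that reached from 0.6 kb beyond the edge to 0.2 kb inside it. E3 followed up to 0.8 kb and E4 up to 3.2 kb. H3K27me3 alone, E5, then extended from 3.2 to 11.6 kb, and a second run of E4 lay at 11.6 to 12.4 kb before E5 closed the locus. The leaf locus thus held 9 kb of E5, 3.2 kb of E4, 0.6 kb of E3 and 0.2 kb of E8.

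After vernalization E3 occupied the first 2.2 kb of VRN-A1, from the edge inwards. E4 took 2.2 to 3.4 kb, 4.4 to 4.8 kb and the long stretch from 5.8 to 11 kb, which was E5 in leaf. E5 lay at 3.4 to 4.4 kb, at 4.8 to 5.8 kb and from 11.2 kb on, where 0.8 kb was E4 in leaf, and a single bin at 11 to 11.2 kb was unmodified. In total 5.8 kb went from E5 to E4 and 1.4 kb from E4 to E3, against 0.8 kb from E4 to E5. E4 at VRN-A1 rose from 3.2 to 6.8 kb, whereas over the whole of chromosome 5A it fell from 2.62 to 0.419 Mb. The E4 run of 5.2 kb was among 3 of that length or more in 672 E4 runs of 5A in vernalized leaf, where the median run was 0.4 kb and the longest 11 kb. The E3 run of 2.2 kb was among 5 of 1022 on 5A, which reached 2.6 kb at most.

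The study shows E4 with a weak H3K4me3 signal in leaf and without it in vernalized leaf, so the same number need not stand for the same marks in both conditions. E4 belongs to the mixed class under either definition. Whether part of the rise of E4 at VRN-A1 comes from this difference between the maps was not tested.

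At VRN-B1 in leaf the pattern was simpler. E4 covered 0.2 kb beyond the edge and the first 1 kb of the locus, and E5 ran without a break from 1 kb to 14.6 kb, 1.6 kb past the low-coordinate edge. This E5 run of 13.6 kb was longer than most on 5B, where 318 of 8327 E5 runs, 3.82%, were at least as long and the median was 1.8 kb. VRN-B1 held no E3 and no E8 in leaf, in contrast to the other copies.

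In vernalized leaf the first 0.8 kb of VRN-B1 was E3 and the next bin E4. E5 covered 1 to 7.6 kb and 8.6 to 13.2 kb, separated by a 1 kb run of E4 that was E5 in leaf. The locus went from 12 to 11 kb of E5, from 1 to 1.2 kb of E4 and from 0 to 0.8 kb of E3. Just beyond the edge 1 bin was E1, the state with all active marks, and the next 1 was E8. This E1 bin, E4 in leaf, was the only bin in which a mixed or repressed state gave way to an activated state at any VRN1 copy or in the 50 kb around it.

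At VRN-D1 in leaf E8 reached from 0.2 kb beyond the edge to 0.4 kb inside, followed by 1 bin of E3, E4 up to 1.4 kb, and E5 that was interrupted by a bin of E8 at 3.4 to 3.6 kb and by E4 at 7 to 8 kb. The order E8, E3, E4, E5 from the edge inwards was thus the same as at VRN-A1. The leaf locus held 6.4 kb of E5, 1.8 kb of E4, 0.2 kb of E3 and 0.6 kb of E8.

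In vernalized leaf the first 0.4 kb of VRN-D1 was unmodified, 1 bin of E8 followed, and E3 took 0.6 to 1.4 kb, the stretch that was E4 in leaf. Unmodified chromatin lay next to it up to 2 kb and again at 6.2 to 6.6 kb and from 7.6 kb to the end of the locus. E5 lay at 2 to 6.2 kb and 6.6 to 7.6 kb, of which 0.8 kb was E8 or E4 in leaf. E4 was absent in vernalized leaf. Of the bins of VRN-D1 that were repressed in leaf, 2 kb became unmodified and none became mixed, and of the mixed bins 0.8 kb became unmodified and 0.8 kb repressed.

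**Figure D2:**
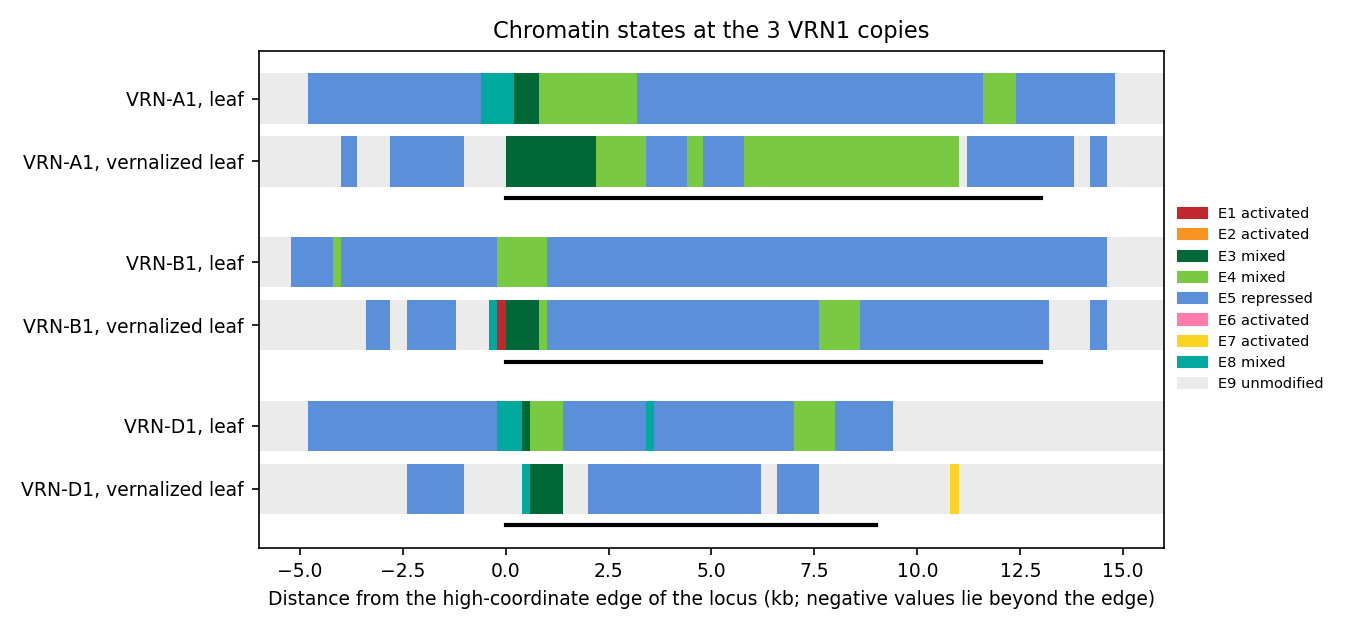
Chromatin state of each 200 bp bin from 6 kb beyond the high-coordinate edge of each VRN1 locus to 16 kb inwards, in leaf and vernalized leaf; the horizontal axis is distance in kb from that edge and the black line marks the locus. E3 (dark green) covered 2.2 kb at VRN-A1 and 0.8 kb at VRN-B1 and VRN-D1 in vernalized leaf, and near it, at or beyond the edge, all 3 copies had a gap of E9 (grey) that was E5 (blue) or E8 (teal) in leaf.

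Beyond the high-coordinate edge all 3 copies lost part of their H3K27me3. In leaf, H3K27me3 reached 4.8 kb past the edge at VRN-A1, 5.2 kb at VRN-B1 and 4.8 kb at VRN-D1. In vernalized leaf an unmodified gap stood in this stretch, from 1 kb beyond to the edge at VRN-A1, from 1.2 to 0.4 kb beyond it at VRN-B1, and from 1 kb beyond to 0.4 kb inside at VRN-D1. These gaps lay at chr5A:587424001-587425000, chr5B:573816401-573817200 and chr5D:467184601-467186000. A piece of E5 flanked each gap on its outer side, up to 2.8 kb beyond the edge at VRN-A1 and up to 2.4 kb at VRN-B1 and VRN-D1. VRN-A1 and VRN-B1 had 1 further piece of E5 beyond it. The rest of this stretch had become unmodified, apart from the bins of E8 and E1 next to the edge of VRN-B1.

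The share of bins that changed class was 34 of 65 at VRN-A1, or 52.3%, 5 of 65 at VRN-B1, or 7.69%, and 18 of 45 at VRN-D1, or 40%. Over all bins, 3.15% changed class on 5A, 3.49% on 5B and 4.4% on 5D, but most of those bins were unmodified in both conditions. Among bins that were repressed or mixed in leaf, as all bins of the loci were, 43.3% changed class on 5A, 38.9% on 5B and 45.6% on 5D. Against this background VRN-A1 was somewhat above its chromosome, VRN-D1 somewhat below, and VRN-B1 far below. The shares at VRN-B1 and VRN-D1 depended on where borders were drawn: with the locus borders 2 kb further out VRN-B1 had 18.8%, and with differences within 200 bp of a class boundary left out VRN-D1 had 20.6%.

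The kind of change set VRN-A1 apart more than the amount. Of its repressed bins 29, or 64.4%, became mixed, against 1.89% of the leaf repressed bins of 5A. At VRN-B1 5 repressed bins, or 8.33%, became mixed, against 2.19% on 5B, and at VRN-D1 0 did, against 1.81% on 5D. Leaf repressed or mixed bins that ended as neither were 1 of 65 at VRN-A1, 0 of 65 at VRN-B1 and 14 of 45 at VRN-D1, or 1.54%, 0% and 31.1%. The shares of such bins over the chromosomes were 34.2% on 5A, 31.5% on 5B and 37.2% on 5D. Inside the loci, VRN-D1 lay near this background and the other copies lost less. The background pools bins of domains of every length. Against other domains at least as long, each whole VRN1 domain kept less than the median, as given below. No bin of a locus or of its flanks newly became repressed or mixed at any copy.

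**Figure D3:**
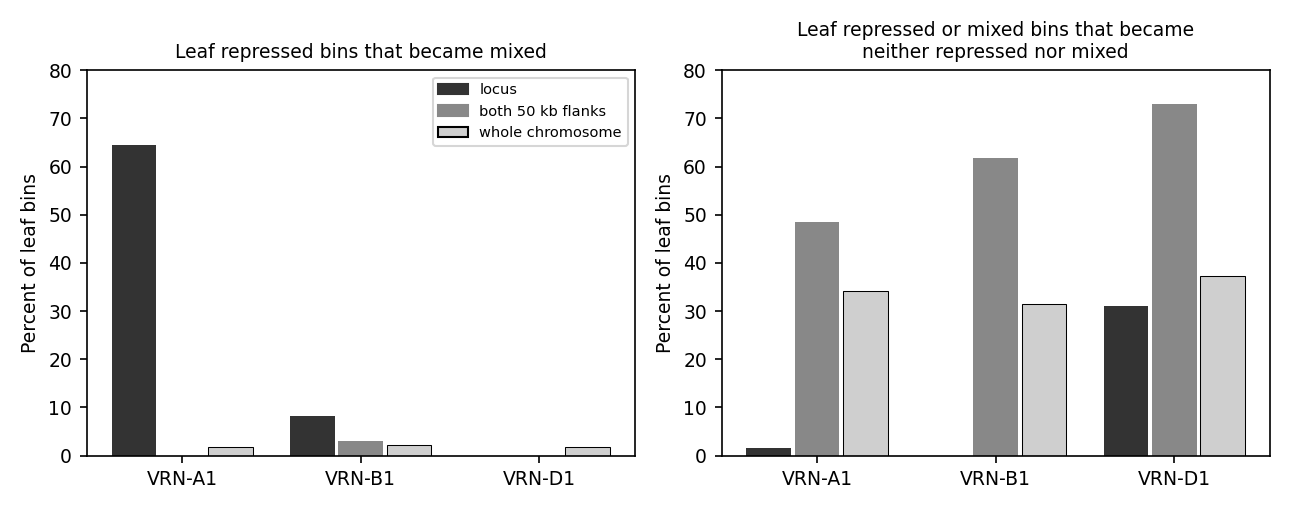
Percent of leaf repressed bins that were mixed in vernalized leaf (left) and of leaf repressed or mixed bins that were neither in vernalized leaf (right), for each VRN1 locus, its 50 kb flanks and its whole chromosome. At VRN-A1 64.4% of the repressed bins became mixed against 1.89% on 5A, while the right panel shows larger losses in the flanks than inside each locus.

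The flanks held little else. Of 500 flanking bins, 28 changed class at VRN-A1, 31 at VRN-B1 and 20 at VRN-D1, which is 5.6%, 6.2% and 4%. The repressed and mixed bins of the flanks were the outer ends of the domains over VRN1, and they were lost more often than the bins inside: 17 of 33 kept H3K27me3 at VRN-A1, 13 of 34 at VRN-B1 and 7 of 26 at VRN-D1. Activated bins in the flanks were few, and only 0.4 kb at VRN-B1 was activated in both conditions. VRN-A1 had 1 kb of activated chromatin in its high-coordinate flank in leaf, including 0.6 kb of E2 from 13.2 to 13.8 kb beyond the edge, and 0 kb there in vernalized leaf, when the opposite flank gained 1.4 kb of E7. VRN-B1 went from 0.4 to 2.4 kb in its high-coordinate flank, mostly E2 and E6 between 46.8 and 50 kb beyond the edge. VRN-D1 gained 1 bin of E7 in its low-coordinate flank, 1.8 kb past that edge.

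Each locus lay inside 1 leaf domain of uninterrupted repressed or mixed chromatin, which extended past it on both sides. The domain measured 19.6 kb at VRN-A1 (chr5A:587409201-587428800), 19.8 kb at VRN-B1 (chr5B:573801401-573821200) and 14.2 kb at VRN-D1 (chr5D:467175601-467189800). These were long but not exceptional domains. On 5A 140 of 4478 domains, 3.13%, were at least as long, on 5B 272 of 5324, 5.11%, and on 5D 397 of 4692, 8.46%.

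In vernalized leaf the VRN-A1 domain kept 82.7% of its bases in the repressed or mixed class, the VRN-B1 domain 78.8% and the VRN-D1 domain 53.5%. The other domains of at least the same length kept a median of 90.8% on 5A, 94% on 5B and 87.8% on 5D. Thus 38 of 139 other domains on 5A kept no more than VRN-A1, 50 of 271 on 5B no more than VRN-B1, and 47 of 396 on 5D no more than VRN-D1. The domains also broke up. The VRN-A1 domain was left in 5 pieces, the VRN-B1 domain in 5 and the VRN-D1 domain in 4, against medians of 2, 2 and 1 for the others, of which 25 of 139, 33 of 271 and 77 of 396 had at least as many. The largest piece at VRN-A1 was 11 kb and began at the high-coordinate edge.

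The mixed share of the VRN-A1 domain rose from 23.5% to 45.9%, a change of 22.4 percentage points, while the median change of the other long domains of 5A was -3.97 points. Only 1 of these 139 changed by as much or more. At VRN-B1 the mixed share went from 7.07% to 11.1%, a change of 4.04 points against a median of -2.04, and 20 of 271 others changed by at least as much. At VRN-D1 it went from 19.7% to 7.04%, a change of -12.7 points against a median of -3.92, and 348 of 396 others had a value at least as high. The VRN1 domains of the 3 sub-genomes thus lay at different places in the spread of the long domains on their chromosomes.

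**Figure D4:**
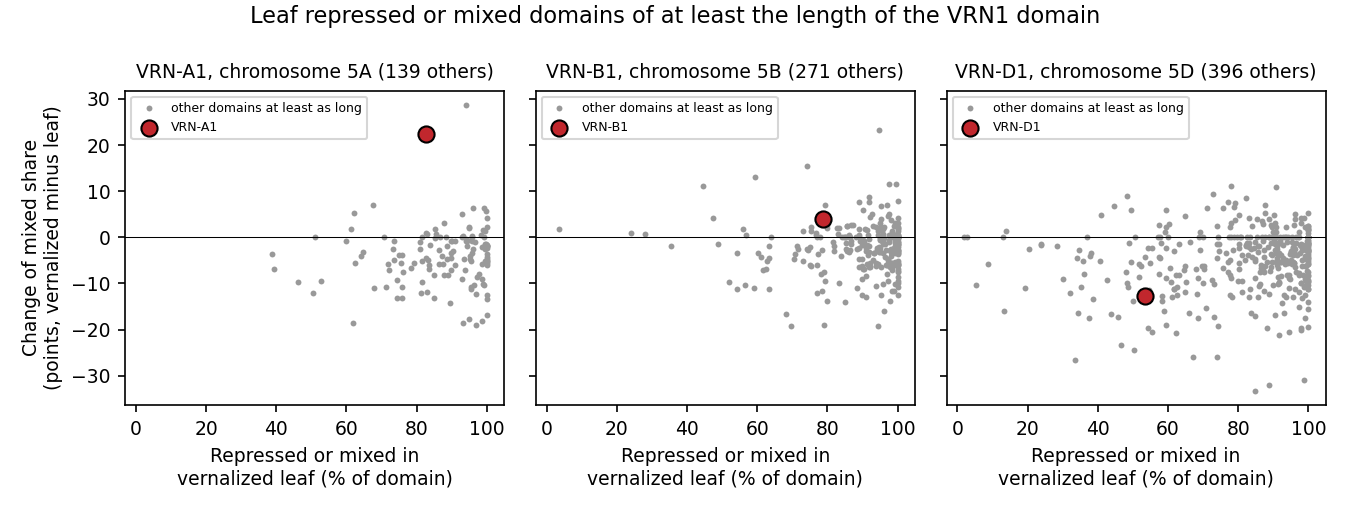
Change of the mixed share in percentage points (vertical) against the percent of the domain that was still repressed or mixed in vernalized leaf (horizontal) for the VRN1 domain (red) and the other leaf domains of at least its length on the same chromosome (grey). VRN-A1 stood at 82.7% kept and 22.4 points, above all but 1 of 139 others, VRN-B1 at 78.8% and 4.04 points, and VRN-D1 at 53.5% and -12.7 points.

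Each locus was also ranked among all windows of its own length on its chromosome, stepped by 1 bin. Windows overlap, so the number of separate regions they form is given where it helps. For leaf repressed or mixed chromatin, 0.462% of 13 kb windows on 5A were as fully covered as VRN-A1, in 359 separate regions. The value was 0.94% on 5B for VRN-B1, in 562 regions, and 1.17% of 9 kb windows on 5D for VRN-D1, in 843 regions. For repressed chromatin alone, 0.968%, 0.73% and 1.87% of windows had at least as much as VRN-A1, VRN-B1 and VRN-D1.

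The loss of repressed chromatin, 5.2 kb at VRN-A1, 1 kb at VRN-B1 and 1.2 kb at VRN-D1, was reached or passed by 0.24%, 4.97% and 3.96% of windows, in 236, 2170 and 2044 separate regions. Windows without repressed chromatin in leaf cannot lose any. Among windows that had at least 1 repressed bin in leaf, the shares were 2.68% for VRN-A1, 44.3% for VRN-B1 and 39.3% for VRN-D1. Losses like those at VRN-B1 and VRN-D1 were therefore common among windows with at least 1 repressed bin in leaf. Such windows need not be covered from end to end, as the loci were. Against other domains at least as long, the VRN-B1 domain kept 78.8% where the median was 94%. The VRN-D1 domain kept 53.5% where the median was 87.8%.

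The gain of mixed chromatin at VRN-A1, 5 kb, stood further out than any other ranked change at the copies. The rank by mixed gain was added after the states at the loci were seen, so its small share is a description and no test. Only 140 of 3548804 windows of 5A, 0.0039%, gained as much, and they formed 3 separate regions, 1 of which is VRN-A1 itself. The highest window gained 10.4 kb. By its mixed length in vernalized leaf, 9 kb, VRN-A1 was in 1 of 2 regions of 5A. VRN-B1 gained 1 kb, which 0.29% of windows on 5B reached in 195 regions. VRN-D1 lost 1.6 kb of mixed chromatin, which also fell over the whole of 5D, from 3.43 to 1.52 Mb. Among windows with a repressed bin in leaf, the share with the gain of VRN-A1 was 0.044% and that with the gain of VRN-B1 2.18%.

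Loss of bins labelled repressed or mixed inside the locus gave another order of the copies. The loss at VRN-D1, 2.8 kb, was reached by 1.74% of windows on 5D, and that at VRN-A1, 0.2 kb, by 7.09% on 5A. This rank was also added after the states were seen, and windows without such bins in leaf cannot lose any. Among leaf repressed or mixed bins, 31.1% ended as neither at VRN-D1, against 37.2% over 5D, although its whole domain kept less than the median of long domains. VRN-B1 lost no such bin inside its interval, though its domain lost bins beyond both edges. A label does not give the level of the mark. By the number of bins that changed class, 0.379%, 15.3% and 2.49% of windows had at least as many as VRN-A1, VRN-B1 and VRN-D1. Most windows were unmodified in both conditions. Among leaf repressed or mixed bins the changed shares were 52.3%, 7.69% and 40% at the loci, against 43.3%, 38.9% and 45.6% over their chromosomes. No locus gained activated chromatin, so that measure gives no rank. With the 50 kb flanks included, in windows of 113, 113 and 109 kb, the loss of repressed chromatin was 7.8, 5 and 4.8 kb and was reached by 2.3%, 6.93% and 9.64% of windows.

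**Figure D5:**
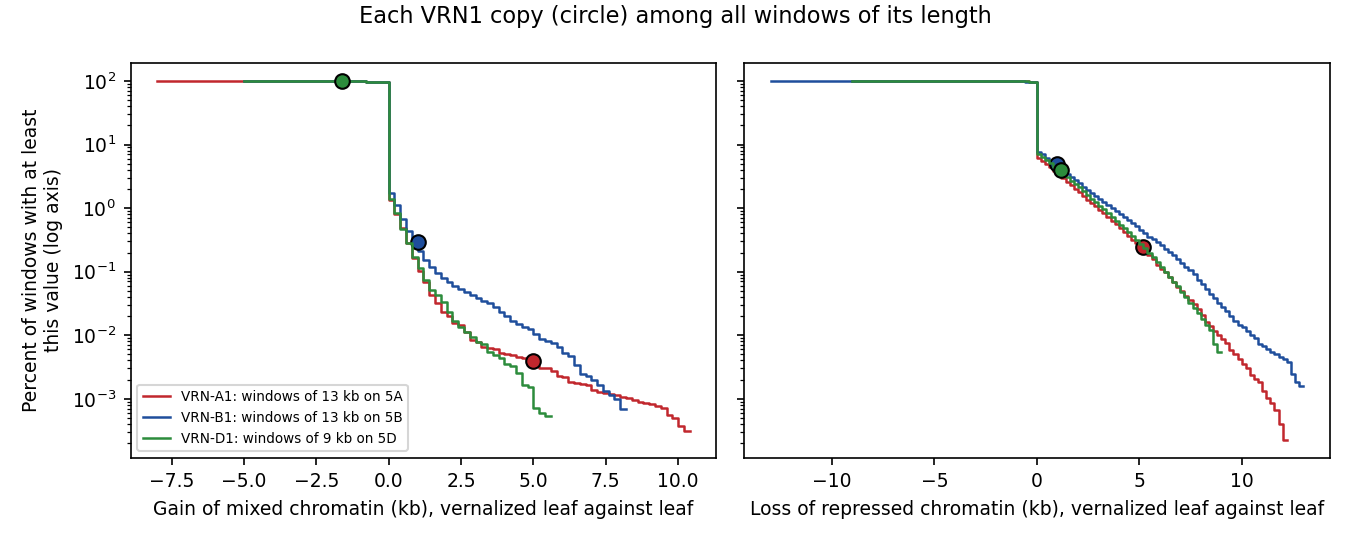
Percent of all windows of the locus length (log axis) whose gain of mixed chromatin (left) or loss of repressed chromatin (right) was at least the value on the horizontal axis in kb, with the VRN1 copy of that chromosome as a circle. VRN-A1 stood at a gain of 5 kb that 0.0039% of windows reached and at a loss of 5.2 kb that 0.24% reached, and the loss at VRN-B1 and VRN-D1 was reached by 4.97% and 3.96%. The rank by mixed gain was added after the states at the loci were seen.

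The region most like each copy was found by counting the bins of equal class over both conditions, in windows outside the locus and its flanks. For VRN-A1 it was chr5A:554051401-554064400, with 102 of 130 equal bins, 78.5%. This window went from 12.4 kb repressed and 0.6 kb mixed to 2 kb repressed and 11 kb mixed, so that its shift was larger than that of VRN-A1. It lies in the long domain chr5A:554047801-554088200, whose mixed share went from 11.4% to 40.1%. That domain is the 1 of 139 named above, so the 2 comparisons are not separate. For VRN-B1 it was chr5B:641547201-641560200, with 125 of 130 equal bins, 96.2%, and 12 kb repressed and 1 kb mixed in both conditions. For VRN-D1 it was chr5D:432925601-432934600, with 75 of 90 equal bins, 83.3%, which went from 7.8 kb repressed and 1.2 kb mixed to 6.6 kb, 0.8 kb and 1.6 kb unmodified. By percent the closest match of VRN-A1 was thus the least close of the 3, and VRN-B1 had a near copy of its pattern elsewhere on its chromosome. A locus mostly of 1 class, as VRN-B1 was in both conditions, is easier to match, and VRN-D1 was compared over fewer bins.

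Set beside each other by distance from the high-coordinate edge, over 9 kb inside and 5 kb beyond it, the copies were more alike in leaf than in vernalized leaf. VRN-B1 and VRN-D1 had the same class in 85.7% of 70 bins in leaf and in 68.6% in vernalized leaf. VRN-A1 and VRN-B1 went from 78.6% to 50%, and VRN-A1 and VRN-D1 from 75.7% to 51.4%. Inside the gene interval the share fell from 75.6% to 44.4% for VRN-A1 and VRN-B1, from 66.7% to 33.3% for VRN-A1 and VRN-D1, and from 82.2% to 64.4% for VRN-B1 and VRN-D1. Beyond the edge it fell from 84% to 60%, from 92% to 84% and from 92% to 76% for the same pairs. The copies differ in length and insertions, so bins at equal distance need not be homologous sequence, in particular deep in the locus. Inside the loci all leaf bins were repressed or mixed, mostly repressed, and such composition alone raises agreement, which was not corrected for. For pairs with VRN-A1 the shares also depend on its direction, which was not settled.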

How the data were processed

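ChIP-seq libraries of leaf and vernalized leaf, with 2 replicates for each of 4 histone marks and the input, were made by the authors from 1 wheat cultivar. Reads were aligned to IWGSC RefSeq v1.0, and the submitters' processing notes name fastp 0.21.0 and Bowtie2 2.3.5.1. The paper adds that alignments were filtered by mapping quality and that duplicates were removed. The authors gave peaks of the marks and of accessibility to ChromHMM, a hidden Markov model. How replicates were combined is not given in the sources used here. The deposited values are categorical state labels of another kind than counts or signal, 1 label for each segment, in 1 map for each condition.

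The labels were read in groups of 4 fields, expanded to bins of 200 bp and grouped into the 4 classes by the order in which the study draws its states. Nothing in the files allowed a check of that order. Lengths, bin changes, domains and windows were computed with Python 3.11.15 and numpy 2.4.6 and plotted with matplotlib 3.10.9. The splitting into runs, the count of changed bins and the method of window sums were checked on simulated maps, and the domains and ranks were not. No paired analysis was possible because a condition is represented by a single map. The copies are named with all their values, together with the single most alike window on each chromosome. The members, borders and measures were chosen with earlier results of these data known, and the ranks by mixed gain and by loss of repressed or mixed chromatin were added after the states at the loci were seen. Probes and primers were copied from the study's primer list. Alternatives were other borders, flanks, groupings of states, minimum lengths and sets of windows.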

Additional observations from a re-analysis of the deposited data

Results flagged for a closer look

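The length of mixed chromatin moved in different directions among the copies under the same contrast. It rose by 5 kb at VRN-A1 and by 1 kb at VRN-B1 from leaf to vernalized leaf, and at VRN-D1 it changed by -1.6 kb. Over the whole chromosomes mixed chromatin fell, from 3.29 to 1.45 Mb on 5A, from 3.31 to 1.78 Mb on 5B and from 3.43 to 1.52 Mb on 5D. The direction at VRN-D1 was thus that of its chromosome, and those at VRN-A1 and VRN-B1 were not. The difference between the copies was not tested, since each condition has 1 map.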

How the results depend on the processing

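Of 102 values recomputed under an alternative, 51 moved beyond the spread allowed for them, a 95% binomial interval over bins or windows that covers counting only. The 51 include window shares for activated gain and for the mixed gain of VRN-D1, for which no rank was given. Shares of bins or windows cannot change sign, and a change of 0 has none. No other change of length took the opposite sign. Limits are the single map per condition, states without depth and borders of the loci taken without an annotation. With borders 2 kb further out, repressed chromatin at VRN-B1 changed by -3 kb and the share of changed bins there was 18.8%. Under the same borders mixed chromatin at VRN-A1 rose by 4.4 kb, and repressed or mixed chromatin changed by -1.8, -2 and -4.2 kb at VRN-A1, VRN-B1 and VRN-D1. With mixed states counted as repressed, repressed length changed by -0.2, 0 and -2.8 kb in the same order and 1.54% and 0% of bins changed class at VRN-A1 and VRN-B1. That grouping by construction hides shifts between E5 and the mixed states, and under it VRN-D1 had the largest change of the 3 copies. With differences within 200 bp of a class boundary left out, 20.6% of bins changed at VRN-D1. In flanks of 20 kb, 10.5%, 11% and 10% of bins changed at VRN-A1, VRN-B1 and VRN-D1, and in flanks of 100 kb 3.6% at VRN-A1 and 2.2% at VRN-D1.

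The percent of windows with at least the loss of repressed chromatin of VRN-A1, VRN-B1 and VRN-D1 was 0.47, 4.82 and 3.28 over all 21 chromosomes, 0.956, 18.7 and 14.8 among windows with a modified bin, 2.68, 44.3 and 39.3 among windows with a leaf repressed bin, and 2.3, 6.93 and 9.64 with the flanks included. For the gain of mixed chromatin, in alternatives chosen after seeing the data, VRN-A1 was at 0.0157% among windows with a modified bin and 0.044% among those with a leaf repressed bin. VRN-B1 was at 0.245% over all chromosomes, 1.09% and 2.18% among those sets, and 0.283% with class segments under 600 bp set to unmodified. No rank was given for a gain of 0 or less.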
